A study of Mus musculus with 10 samples.

Results

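Cadherins and protocadherins are the calcium-dependent adhesion molecules of the cadherin superfamily, and the genes described here were those with a symbol of Cdh followed by a number, or beginning with Pcdh, that reached at least 10 UMIs summed over all kept cells. UMIs (unique molecular identifiers) count captured transcript molecules. Of 31053 genes in the matrices, 92 had such a symbol and 66 reached 10 UMIs. Cdh6 and Cdh10 had exactly 10 UMIs, Cdh20 fell just short with 9, and 8 of the remaining gene identifiers had no UMI. The 66 members were 42 clustered protocadherins (1 alpha, 20 beta and 21 gamma genes of 14, 22 and 21) and 24 other genes.

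Single-cell RNA sequencing (10x Genomics, 3′ end) was done on mouse intestinal organoids and colonic crypts. Organoids were grown in Matrigel from proximal small intestinal crypts. ENR-organoids (3 libraries, passages 2, 7 and 3) were kept in EGF with Noggin and R-Spondin 1. For Hyper-organoids (3 libraries, passages 1, 6 and 3) the medium held EGF, R-Spondin 1 conditioned medium, FGF2, the BMP receptor inhibitor LDN193189, GSK-3 Inhibitor XV, Pexmetinib, the histone deacetylase inhibitor VPA and the EZH2 inhibitor EPZ6438. -VE-organoids (2 libraries, passages 1 and 6) had the Hyper medium without VPA and EPZ6438, so that Hyper against -VE contrasts this pair of inhibitors, whereas Hyper against ENR contrasts whole media. In libraries numbered 1 and 2 both other groups were derived from ENR-organoids, and those numbered 3 were started from primary crypts. The labels name no culture series, which is read here from the library codes. Whether libraries 1 and 2 of a group are 1 line at 2 passages is not stated. Each was fitted as a replicate, so the replicates may not be independent. Normal colonic crypts and crypts of mice given dextran sulfate sodium (DSS), which injures the colonic epithelium, had 1 library each. The mouse line behind each library is not stated in the labels.

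Classical cadherins bind the same molecule on a neighbouring cell and are tied to actin through catenins. E-cadherin (Cdh1) holds the intestinal epithelium together at adherens junctions, and LI-cadherin (Cdh17) is a cadherin of the intestinal lateral membrane that lacks the catenin-binding tail. Solitary protocadherins of the delta groups have their own genes, many with roles in neural and embryonic tissue. Clustered protocadherins lie side by side on one chromosome, each with its own promoter, and give neurons different surface identities. In the alpha and gamma clusters a variable first exon is spliced to constant exons shared by the whole cluster, while beta genes have a single coding exon.

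The 10 libraries held 25204 kept cells, 1983 to 4293 per organoid library and 1132 and 1933 in the colon, with 89124015 to 170019527 UMIs per organoid library and 19906845 and 32397122 in the colon. No pair of libraries shared more than 5 cell barcodes. A marker list of 5 epithelial genes summed to 3809 to 4949 CPM (UMI counts scaled to the library's total) in the organoids, and 6 leukocyte genes to 0.837 to 2.01 CPM, against 114 CPM in normal and 1074 CPM in DSS crypts. Of the authors' cell classes, each had the highest level of its own marker list, except that the stem list was as high in transit amplifying cells. A list of 5 neuronal genes summed to 2.28 to 3.37 CPM in ENR- and -VE-organoids and to 8.65 to 10.4 CPM in Hyper-organoids, and 6 fibroblast genes summed to at most 0.107 CPM and to 0.532 to 0.838 CPM. Whether cells of these kinds had a part in the differences below was not tested. P-values measure only the spread between these libraries, part of which may be technical.

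All but a small part of the members' UMIs came from 3 epithelial genes. Type I cadherins, mostly Cdh1, held 45.2% of them, the 7D cadherins, mostly Cdh17, 42.5%, the delta-1 group, mostly Pcdh1, 7.39%, the delta-2 group 2.64% and the 42 clustered genes 1.36%. Of the 66 members, 41 passed the filter on low counts and 25, with 10 to 61 UMIs each, did not. One edgeR quasi-likelihood model covered the 8 organoid libraries, and called genes had both a 2-fold or larger change and an adjusted p (Benjamini-Hochberg) under 0.05. In Hyper- against ENR-organoids, 18 members rose and 2 fell, beside 18.2% of all 16037 tested genes higher and 4.75% lower. The median log2 fold change was 1.08 over the 41 members and -0.01 over all genes. Members with few UMIs in ENR- and -VE-organoids (Cdh2, Cdh3, Cdh13, Pcdh18 and Pcdhb7 among them) passed the filter through the Hyper libraries. In Hyper-organoids they could only be called upwards, so the counts and medians here and below describe the members that passed and are no support. Against -VE-organoids 12 members rose and 0 fell, beside 16.1% of all genes higher and 2.51% lower, where an unadjusted p under 0.05 was reached by 15 members upwards and 2 downwards and DESeq2 called 10 and 0. Outside Hyper against ENR over all kept cells, counts at an unadjusted p lack the share of all genes and cannot be judged against it. Of -VE- against ENR-organoids, 1 member (Cdh3) was called, upwards, beside 1.35% of all genes higher and 1.2% lower. The Hyper libraries are shared by the first 2 comparisons. Without -VE library 2, 5 members remained called against -VE-organoids, and leaving out any library gave 14 to 24 against ENR-organoids. In all summed counts, fewer cells that express a gene cannot be told apart from less RNA per cell.

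**Figure D1:**
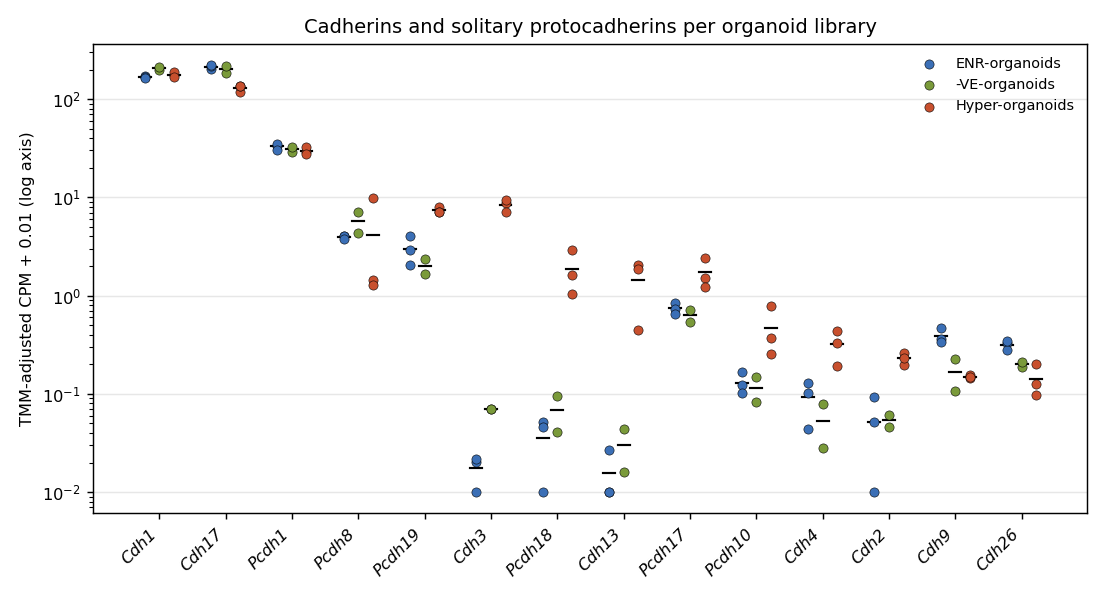
Level of 14 cadherins and solitary protocadherins in each organoid library, as TMM-adjusted CPM plus 0.01 on a log axis, with a bar at each group mean. Cdh1 and Cdh17 lie above 100 CPM in every library, and the 3 Hyper libraries of Cdh3 lie between 7.14 and 9.31 CPM, far above the other 5.

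Cdh1, E-cadherin (chromosome 8, 106603351 to 106670246, plus strand, build mm10), changed little. It was at 172, 169 and 163 CPM in ENR-, 200.1 and 212 CPM in -VE- and 176, 187 and 167 CPM in Hyper-organoids. Both -VE libraries were above the other 6, while the ENR and Hyper libraries overlapped. The log2 fold change of Hyper against ENR was 0.07 (SE 0.06, edgeR adjusted p = 0.305). Against -VE-organoids it was -0.22 (SE 0.06, edgeR adjusted p = 0.0202), and of -VE against ENR 0.29 (SE 0.06, edgeR adjusted p = 0.0307), both under the fold of 2. Per class, the pooled Cdh1 level ran from 83.7 CPM in Paneth cells of ENR-organoids to 340.5 CPM in the revival stem class of -VE-organoids.

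Cdh17, LI-cadherin (chromosome 4, 11758147 to 11817895), was lower in Hyper-organoids. It was at 201, 218 and 221 CPM in ENR-, 183 and 218 CPM in -VE- and 119, 135 and 137 CPM in Hyper-organoids. All 3 Hyper libraries were below the other 5. The log2 fold change was -0.71 (SE 0.08, edgeR adjusted p = 0.000205) against ENR and -0.62 (SE 0.09, edgeR adjusted p = 0.00116) against -VE-organoids, which passed the p but not the fold of 2. Enterocytes had the highest pooled Cdh17 level of the named classes in each group, 332 CPM in ENR-, 389 CPM in -VE- and 389 CPM in Hyper-organoids, and Paneth cells the lowest, with 73.4, 92.8 and 100.1 CPM. The enterocyte and enterocyte progenitor classes held 846 and 1930 ENR cells and 86 and 8 Hyper cells. Within a class, the log2 fold change against ENR was -0.28 (SE 0.07, edgeR adjusted p = 0.00994) in stem and -0.57 (SE 0.08, edgeR adjusted p = 0.000357) in transit amplifying cells.

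Pcdh1, a delta-1 protocadherin of epithelia, was the third most abundant member. It was at 33.6, 34.9 and 30.7 CPM in ENR-, 29.2 and 32.6 CPM in -VE- and 29.0, 32.9 and 27.4 CPM in Hyper-organoids. The groups overlapped, and the log2 fold change against ENR was -0.15 (SE 0.08, edgeR adjusted p = 0.163).

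Cdh3, P-cadherin, is a classical cadherin of placenta and basal epithelial layers, and it was nearly absent outside Hyper-organoids. It lies next to Cdh1 (chromosome 8, 106510891 to 106557297, plus strand), 46053 bases upstream with 2 annotated genes between. It was at 0.0104, 0 and 0.0119 CPM in ENR-, 0.0599 and 0.0609 CPM in -VE- and 8.71, 9.31 and 7.14 CPM in Hyper-organoids. These were 2 UMIs in all ENR libraries, 17 in the -VE and 3365 in the Hyper libraries, and the Hyper libraries stood apart from the other 5. The ratio of Hyper to ENR was 1403 (95% counting interval 388 to 11588, edgeR adjusted p = 6.9e-07). Cdh3 passed the filter through the Hyper libraries, so in Hyper-organoids it could only be called upwards. Against -VE-organoids the log2 fold change was 7.09 (SE 0.31, edgeR adjusted p = 5.52e-06). For -VE against ENR, the ratio was 9.01 (counting interval 2.14 to 80.4, edgeR adjusted p = 0.0237). That last call was lost without ENR library 1 or 2 or -VE library 1 or 2, with adjusted p of 0.0602, 0.0968, 0.0769 and 0.137. Counting intervals here cover counting error only.

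Per class, Cdh3 passed the filter in stem, transit amplifying and goblet cells, and did so through the Hyper libraries, so that these classes were those in which it had to differ. Stem cells held 1230 Cdh3 UMIs in Hyper- and 0 in ENR-organoids, at least 97.7-fold higher against a floor of 3 counts over the group (edgeR adjusted p = 6.66e-06). Transit amplifying cells held 1959 and 1, a ratio of 1315 (counting interval 236 to 51955). Goblet cells held 131 and 0, at least 30.6-fold. In Hyper-organoids Cdh3 was at 8.91 CPM in stem, 9.70 CPM in transit amplifying, 7.62 CPM in goblet, 11.1 CPM in revival stem and 2.39 CPM in enteroendocrine cells. No Cdh3 UMI was seen in Hyper enterocytes or Paneth cells, which allows up to 0.961 and 10.5 CPM by the exact Poisson interval.

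Cdh2 and Cdh4, the N- and R-cadherins best known from neurons, rose from very low levels. Cdh2 was at 0.0414, 0.0835 and 0 CPM in ENR-, 0.0513 and 0.0365 CPM in -VE- and 0.251, 0.186 and 0.222 CPM in Hyper-organoids. Its Hyper libraries were above the other 5. Against ENR the log2 fold change was 2.26 (SE 0.64, edgeR adjusted p = 0.0156) by edgeR, where the adjusted p was 0.0519 without ENR library 1. Most Cdh2 UMIs of Hyper-organoids were in enteroendocrine cells, at 10.9 CPM (counting interval 8.54 to 13.7), against 3.80 CPM in ENR- and 2.95 CPM in -VE-organoids. Fitted over libraries within that class, Cdh2 was called neither against ENR (1.62, edgeR adjusted p = 0.0692) nor against -VE-organoids (1.83, edgeR adjusted p = 0.110). Cdh4 was at 0.0932, 0.0334 and 0.119 CPM in ENR-, 0.0684 and 0.0183 CPM in -VE- and 0.183, 0.425 and 0.316 CPM in Hyper-organoids. The Hyper libraries of Cdh4 were also the 3 highest. Its log2 fold change was 1.95 (SE 0.57, edgeR adjusted p = 0.0189), which was not called without ENR library 2 (edgeR adjusted p = 0.065) or Hyper library 2 (edgeR adjusted p = 0.0619). Against -VE-organoids both were called (2.32 and 2.89), and neither was without -VE library 2 (edgeR adjusted p = 0.167 and 0.0896), nor Cdh2 without -VE library 1 (edgeR adjusted p = 0.0896). Cdh4 of Hyper enteroendocrine cells ranged from 1.51 to 23.7 CPM between libraries. With the enteroendocrine class left out of every library, a choice made after seeing the data, Cdh4 was not called, Cdh2 fell under the filter and was not tested, and 19 members were called against ENR and 11 against -VE-organoids.

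Cdh13, T-cadherin, is anchored to the membrane by a lipid and has no intracellular tail. It was at 0, 0.0167 and 0 CPM in ENR-, 0.0342 and 0.00609 CPM in -VE- and 0.441, 2.02 and 1.88 CPM in Hyper-organoids. Hyper library 1, at passage 1, was the lowest of its group and still above the other 5. Hyper libraries 2 and 3 were at passages 6 and 3, and the part of passage was not tested. With 548 and 2 UMIs the ratio of Hyper to ENR was 228 (counting interval 62.9 to 1891, edgeR adjusted p = 0.000364), and against -VE-organoids the log2 fold change was 6.23 (SE 1.01, edgeR adjusted p = 0.00167). Cdh13 too passed the filter through the Hyper libraries, so in Hyper-organoids it could only be called upwards. Annotated genes on the other strand, 4 in number, overlap Cdh13. In Hyper-organoids the revival stem class, 45 cells in 3 libraries, had 37.3 CPM (counting interval 30.0 to 45.7), beside 1.17 CPM in stem and 1.36 CPM in transit amplifying cells. The 3 Hyper libraries of that class were at 15.0, 36.1 and 41.7 CPM, from 5, 14 and 26 cells. The 25 revival stem cells of -VE-organoids had 3 Cdh13 UMIs.

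**Figure D2:**
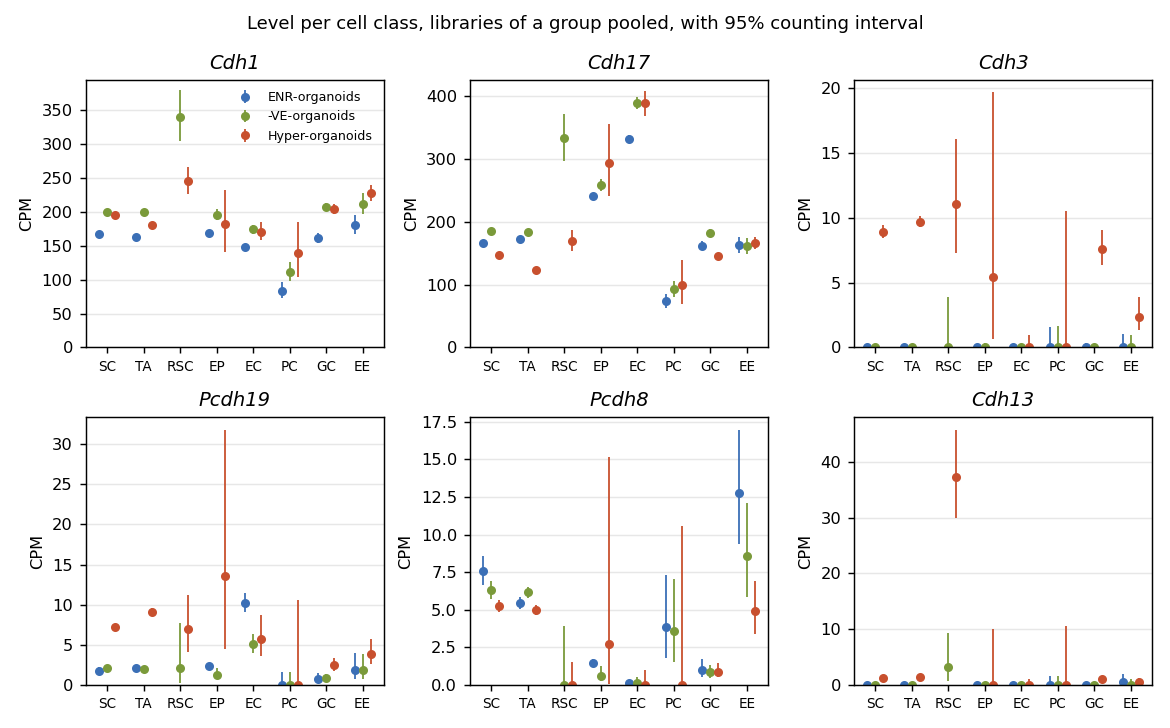
Level of 6 members per authors' cell class (SC stem, TA transit amplifying, RSC revival stem, EP enterocyte progenitor, EC enterocyte, PC Paneth, GC goblet, EE enteroendocrine), with libraries of a group pooled, in CPM, and the 95% counting interval as bars. Cdh17 peaks in enterocytes, Cdh3 is seen almost entirely in Hyper-organoids, and Cdh13 peaks in the Hyper revival stem class at 37.3 CPM.

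Delta-2 protocadherins, solitary genes whose tails bind actin regulators, had 4 of 5 members called higher in Hyper-organoids against both other groups, beside 18.2% of all genes against ENR and 16.1% against -VE. These were Pcdh10, Pcdh17, Pcdh18 and Pcdh19, and Pcdh8 was not called. The 250 bases upstream of the annotated start of these 5 genes are shown because the first 4 genes rose and the fifth was not called. They are RefSeq sequences of build GRCm38.p6, 5′ to 3′ on the gene's strand, with the dinucleotide CG, which reads alike on both strands, in capitals. The windows are chr3:49757317-49757566 (minus strand, Pcdh18), chrX:133688994-133689243 (minus, Pcdh19), chr3:45378148-45378397 (plus, Pcdh10), chr14:84443313-84443562 (plus, Pcdh17) and chr14:79771313-79771562 (minus, Pcdh8). Of the 66 members, 14 had such a window.
Pcdh18: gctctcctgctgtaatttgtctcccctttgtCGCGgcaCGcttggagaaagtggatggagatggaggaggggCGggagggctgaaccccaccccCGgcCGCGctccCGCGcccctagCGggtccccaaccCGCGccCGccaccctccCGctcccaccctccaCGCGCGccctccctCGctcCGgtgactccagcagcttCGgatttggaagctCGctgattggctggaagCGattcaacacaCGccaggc
Pcdh19: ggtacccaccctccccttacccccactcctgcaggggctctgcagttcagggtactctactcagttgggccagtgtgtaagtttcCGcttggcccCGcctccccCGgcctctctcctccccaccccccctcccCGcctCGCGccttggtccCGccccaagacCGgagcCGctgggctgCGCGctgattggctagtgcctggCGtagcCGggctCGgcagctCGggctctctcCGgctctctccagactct
Pcdh10: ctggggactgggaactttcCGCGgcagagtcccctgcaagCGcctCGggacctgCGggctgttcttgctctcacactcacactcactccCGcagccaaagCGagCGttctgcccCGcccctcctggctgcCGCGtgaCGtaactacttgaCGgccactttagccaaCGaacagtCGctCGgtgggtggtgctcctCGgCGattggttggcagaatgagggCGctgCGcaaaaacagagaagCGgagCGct
Pcdh17: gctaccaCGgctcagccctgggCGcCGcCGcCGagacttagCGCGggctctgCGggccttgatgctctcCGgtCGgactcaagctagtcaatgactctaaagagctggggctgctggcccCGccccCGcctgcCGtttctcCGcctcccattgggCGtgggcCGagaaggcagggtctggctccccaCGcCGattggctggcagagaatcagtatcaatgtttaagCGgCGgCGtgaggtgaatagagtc
Pcdh8: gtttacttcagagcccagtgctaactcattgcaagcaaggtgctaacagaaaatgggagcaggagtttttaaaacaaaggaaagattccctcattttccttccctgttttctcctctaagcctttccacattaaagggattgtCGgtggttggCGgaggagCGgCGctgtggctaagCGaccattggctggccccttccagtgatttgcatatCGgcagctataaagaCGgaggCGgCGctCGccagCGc
They hold 23, 16, 22, 21 and 11 CG, as many or more in 13.3%, 25.4%, 14.8%, 16.3% and 35.6% of all 32851 windows of that length, whose median was 6. Cdh9 and Cdh26, the 2 members called lower, had 6 and 0 CG, and Cdh24, tested and not called, had 22. Of members with a window but under the filter, Cdh22 had 30 CG, Pcdh9 18, Pcdh7 7, Cdh6 6, Cdh23 5 and Cdh10 2. Cdh22, Pcdh7 and Cdh10 had UMIs in Hyper- but none in ENR-organoids, and a link between CG and the changes was not tested.

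Pcdh19, a delta-2 gene linked to epilepsy in humans, was the most abundant of the 4. It was at 2.05, 2.91 and 4.05 CPM in ENR-, 1.65 and 2.37 CPM in -VE- and 8.03, 7.16 and 7.15 CPM in Hyper-organoids, so that all Hyper libraries were above the rest. The log2 fold change was 1.31 (SE 0.24, edgeR adjusted p = 0.00202) against ENR and 1.89 (SE 0.28, edgeR adjusted p = 0.00119) against -VE-organoids. Counting all barcodes rather than kept cells, the Pcdh19 change against ENR was 0.88 (edgeR adjusted p = 0.00584), under the fold of 2 and no longer called. Within stem cells it was 1.94 (SE 0.31, edgeR adjusted p = 0.00082) and within transit amplifying cells 1.92 (SE 0.27, edgeR adjusted p = 0.000394). Enterocytes of ENR-organoids held more Pcdh19 (10.2 CPM, counting interval 9.10 to 11.4) than ENR stem (1.67 CPM) or transit amplifying cells (2.13 CPM), as a description with no test.

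Pcdh18 was at 0.0414, 0 and 0.0358 CPM in ENR-, 0.0856 and 0.0304 CPM in -VE- and 2.93, 1.02 and 1.62 CPM in Hyper-organoids. Every Hyper library was above every other library, and the log2 fold change was 6.23 (SE 0.76, edgeR adjusted p = 0.000228) against ENR and 5.05 (SE 0.78, edgeR adjusted p = 0.00136) against -VE-organoids. In stem cells the Pcdh18 UMIs were 276 and 2, a ratio of 32.9 (counting interval 9.02 to 273), and in transit amplifying cells 425 and 3, a ratio of 95.1 (32.3 to 463).

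Pcdh17 was at 0.838, 0.726 and 0.633 CPM in ENR-, 0.710 and 0.530 CPM in -VE- and 2.42, 1.51 and 1.21 CPM in Hyper-organoids. The Hyper libraries were above the other 5, with library 1 highest, and the log2 fold change was 1.23 (SE 0.29, edgeR adjusted p = 0.00658) against ENR. It was 0.90 without Hyper library 1 and 0.62 (edgeR adjusted p = 0.0525) with all barcodes, neither of which was called. Against -VE-organoids it was 1.47 (SE 0.33, edgeR adjusted p = 0.00731), with an adjusted p of 0.0651 without -VE library 2. Pcdh10 was at 0.114, 0.0919 and 0.155 CPM in ENR-, 0.137 and 0.0731 CPM in -VE- and 0.774, 0.358 and 0.243 CPM in Hyper-organoids. Its lowest Hyper library was above the other 5, and the log2 fold change was 1.95 (SE 0.50, edgeR adjusted p = 0.0102) against ENR and 2.16 (SE 0.57, edgeR adjusted p = 0.0151) against -VE-organoids, where it was not called without -VE library 2 (edgeR adjusted p = 0.119). In stem cells alone the Pcdh10 values were 0.45 (edgeR adjusted p = 0.695) and 0.80 (edgeR adjusted p = 0.458), neither called.

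Pcdh8, whose naming here followed a look at its values, split the Hyper libraries. It was at 4.04, 4.05 and 3.80 CPM in ENR-, 7.14 and 4.35 CPM in -VE- and 9.78, 1.43 and 1.28 CPM in Hyper-organoids. Hyper library 1 was the highest of all 8 and Hyper libraries 2 and 3 the lowest, so the groups overlapped. The log2 fold change against ENR was 0.08 (SE 0.71, edgeR adjusted p = 0.934), and -1.54 (edgeR adjusted p = 0.00074) without Hyper library 1. The split was also there in stem cells, where Hyper libraries ran from 1.52 to 11.6 CPM of Pcdh8.

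Cdh9 and Cdh26 fell. Cdh9, a type II cadherin, was at 0.352, 0.326 and 0.454 CPM in ENR-, 0.214 and 0.0974 CPM in -VE- and 0.136, 0.146 and 0.137 CPM in Hyper-organoids. All ENR libraries were the highest, and the log2 fold change of Hyper against ENR was -1.42 (SE 0.33, edgeR adjusted p = 0.0067), while that of -VE against ENR was -1.29 (SE 0.38, edgeR adjusted p = 0.0775). Cdh26 was at 0.321, 0.267 and 0.334 CPM in ENR-, 0.180 and 0.201 CPM in -VE- and 0.0882, 0.192 and 0.116 CPM in Hyper-organoids. The 3 ENR libraries were again above the rest, and the log2 fold change was -1.20 (SE 0.33, edgeR adjusted p = 0.0145), and -0.95, not called, without Hyper library 1.

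**Figure D3:**
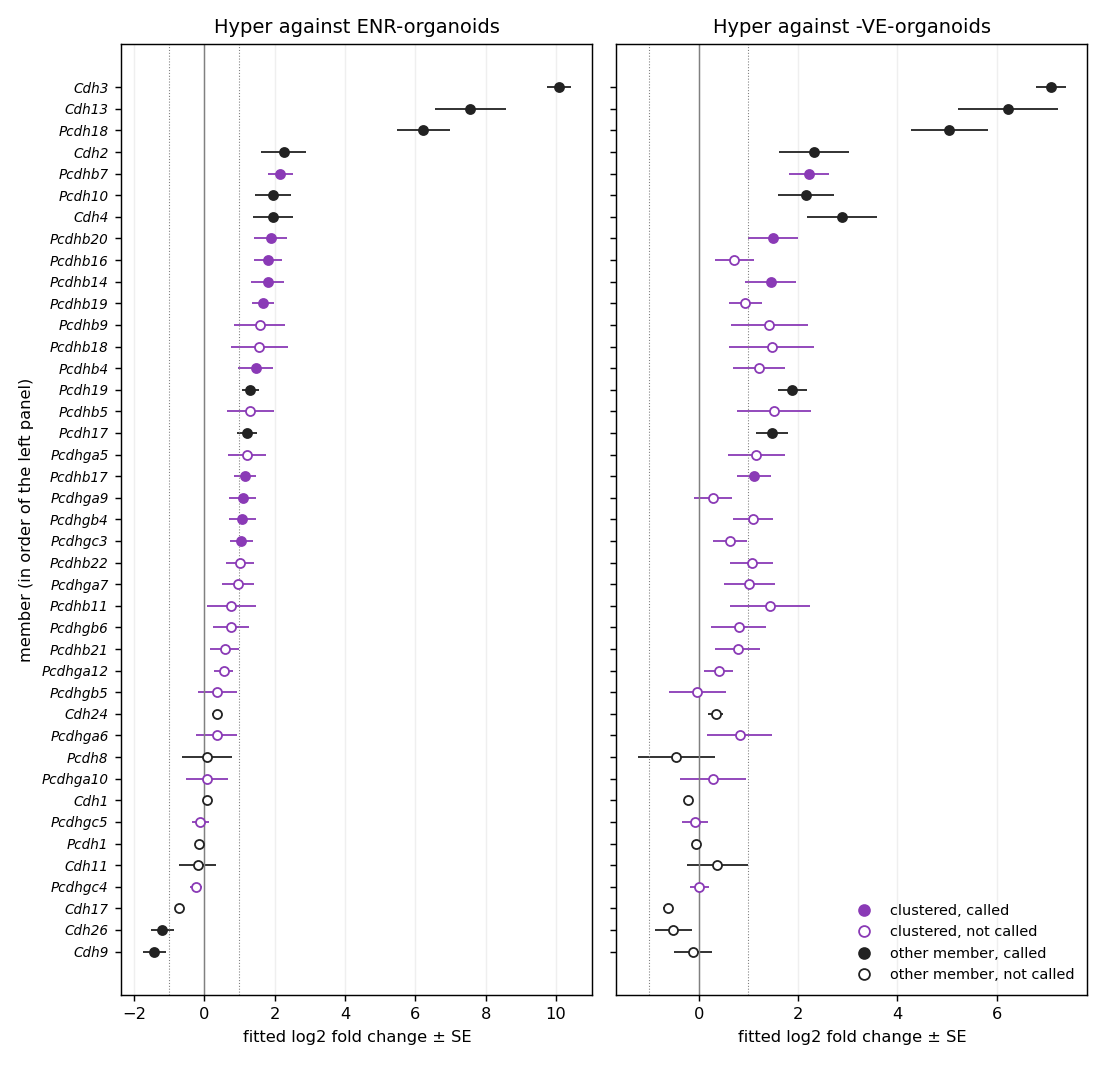
Fitted log2 fold change ± SE of the 41 members that passed the filter, for Hyper- against ENR-organoids (left, which sets the order) and against -VE-organoids (right), with filled points for called members and dotted lines at a fold of 2. Called members run from Cdh9 (-1.42) to Cdh3, and the fitted values of Cdh3 and Cdh13 against ENR rest on 2 ENR UMIs each and are not sizes.

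Members under the filter could still be compared by their UMIs. Pcdh7, a delta-1 protocadherin, had 54 UMIs in Hyper- and 0 in ENR-organoids, at least 15.0-fold higher. Pcdhac2, the one alpha-cluster member, had 29 and 0 (at least 8.06-fold), Cdh22 26 and 0 (at least 7.23-fold), Pcdhb3 21 and 0 (at least 5.84-fold), and Cdh10 8 and 0 (at least 2.22-fold). These members were picked for having no UMI in ENR-organoids, and they were not tested.

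The clustered protocadherins were low but higher in Hyper-organoids. Their summed level was 4.92, 4.26 and 4.42 CPM in ENR-, 5.27 and 4.04 CPM in -VE- and 7.82, 8.28 and 7.28 CPM in Hyper-organoids, all Hyper libraries above the other 5. Of 25 clustered genes that passed the filter, 10 rose and 0 fell against ENR-organoids, beside 18.2% of all genes higher and 4.75% lower, where an unadjusted p under 0.05 was reached by 12 upwards and 0 downwards and DESeq2 called 7 and 0. Their median log2 fold change was 1.08. An unadjusted p under 0.05, in either direction, was more frequent over all genes than over these 25, as counted with the gene lists below. Against -VE-organoids 4 rose (Pcdhb7, Pcdhb14, Pcdhb17 and Pcdhb20), a share near the 16.1% of all genes, and DESeq2 called 2. With 1 library left out in turn, Pcdhb7 was called in 8 of 8 fits, Pcdhb14 in 2, Pcdhb17 in 4 and Pcdhb20 in 3. In -VE- against ENR-organoids 0 were called by edgeR or DESeq2 and 1 reached an unadjusted p under 0.05. For comparison, 21 non-clustered members other than Cdh1, Cdh17 and Pcdh1 summed to 10.2 to 11.7 CPM in ENR-, 12.3 and 10.1 CPM in -VE- and 39.4, 28.9 and 26.2 CPM in Hyper-organoids.

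Beta genes made up 7 of the 10. Pcdhb7 was at 0.0621, 0.0585 and 0.0358 CPM in ENR-, 0.0684 and 0.0365 CPM in -VE- and 0.265, 0.252 and 0.200 CPM in Hyper-organoids. The 3 Hyper libraries did not overlap the others, and the log2 fold change was 2.16 (SE 0.36, edgeR adjusted p = 0.00124) against ENR and 2.21 (SE 0.40, edgeR adjusted p = 0.0029) against -VE-organoids. The other called beta genes had log2 fold changes against ENR of 1.47 for Pcdhb4, 1.80 for Pcdhb14, 1.81 for Pcdhb16, 1.15 for Pcdhb17, 1.67 for Pcdhb19 and 1.89 for Pcdhb20. The called gamma genes were Pcdhgb4 (1.08), Pcdhga9 (1.09) and Pcdhgc3 (1.05), of which Pcdhga9 was not called once the series were blocked (edgeR adjusted p = 0.0504). With all barcodes counted, Pcdhgb4 (0.94) and Pcdhgc3 (0.90) were not called. Pcdhb7, Pcdhb16, Pcdhb19 and Pcdhb20 were still called against ENR with any 1 of the 8 libraries left out, and the other 6 lost the call in 1 to 7 of these fits. The last 200 bases of all 21 gamma and all 14 alpha genes are shared with other genes on the strand, against 1 of 22 beta genes (Pcdhb21). How reads from shared bases were counted was not examined, so levels of alpha and gamma genes may not compare with those of beta genes.

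**Figure D4:**
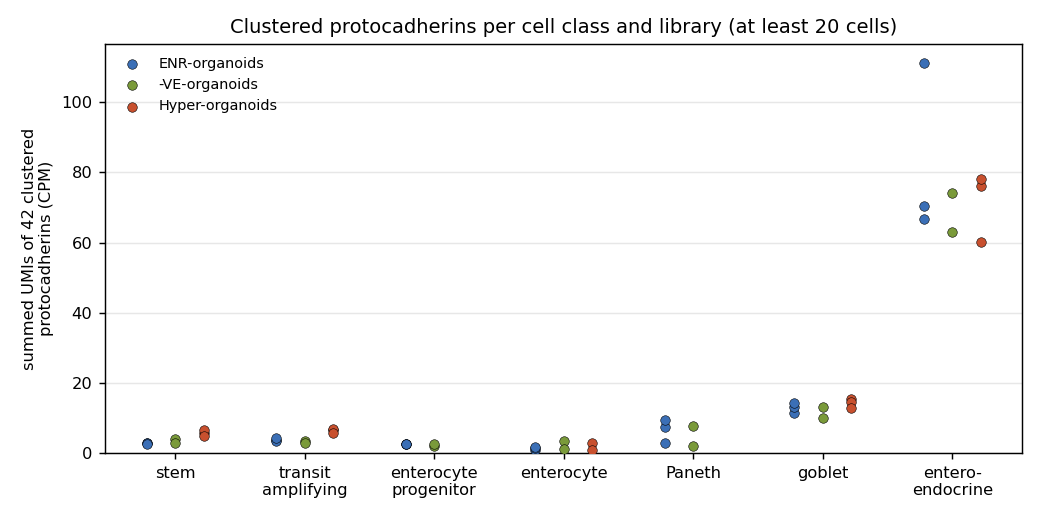
Summed level of the 42 clustered protocadherins per cell class and organoid library (classes of at least 20 cells), in CPM on a linear axis from 0. The enteroendocrine points lie between 60.3 and 111 CPM in all 3 groups, above those of every other class.

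Enteroendocrine cells, the hormone-secreting cells of the epithelium, had the highest level of clustered protocadherins. It was 111, 70.3 and 66.8 CPM in ENR-, 74.3 and 62.9 CPM in -VE- and 60.3, 76.1 and 78.2 CPM in Hyper-organoids, and the 3 groups overlapped. Stem cells held 2.62 to 6.68 CPM and goblet cells 10.1 to 15.6 CPM in these libraries. Enteroendocrine cells were 2.07 to 4.34% of a library's cells and 1.09 to 2.10% of its UMIs, and gave 13.9 to 29.9% of its clustered protocadherin UMIs. Pcdhgc4 (12.8 CPM), Pcdhb17 (8.78 CPM) and Pcdhga12 (6.23 CPM) led in that class over the 8 libraries. Class identity and these levels come from the same cells, so no test was made between classes.

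Outside the enteroendocrine class the beta cluster stood at 0.521, 0.617 and 0.499 CPM in ENR-, 0.724 and 0.839 CPM in -VE- and 2.58, 3.07 and 1.28 CPM in Hyper-organoids. Hyper library 3 was the lowest of its group and still above the other 5. The gamma cluster was at 2.97, 2.86 and 3.23 CPM in ENR-, 3.56 and 2.49 CPM in -VE- and 4.14, 4.10 and 4.36 CPM in Hyper-organoids, with the Hyper libraries again highest. Pooled over the other cells, Pcdhb17 was at 0.128 CPM in ENR- and 0.459 CPM in Hyper-organoids, whereas Pcdhgc4 was at 1.37 and 1.32 CPM.

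**Figure D5:**
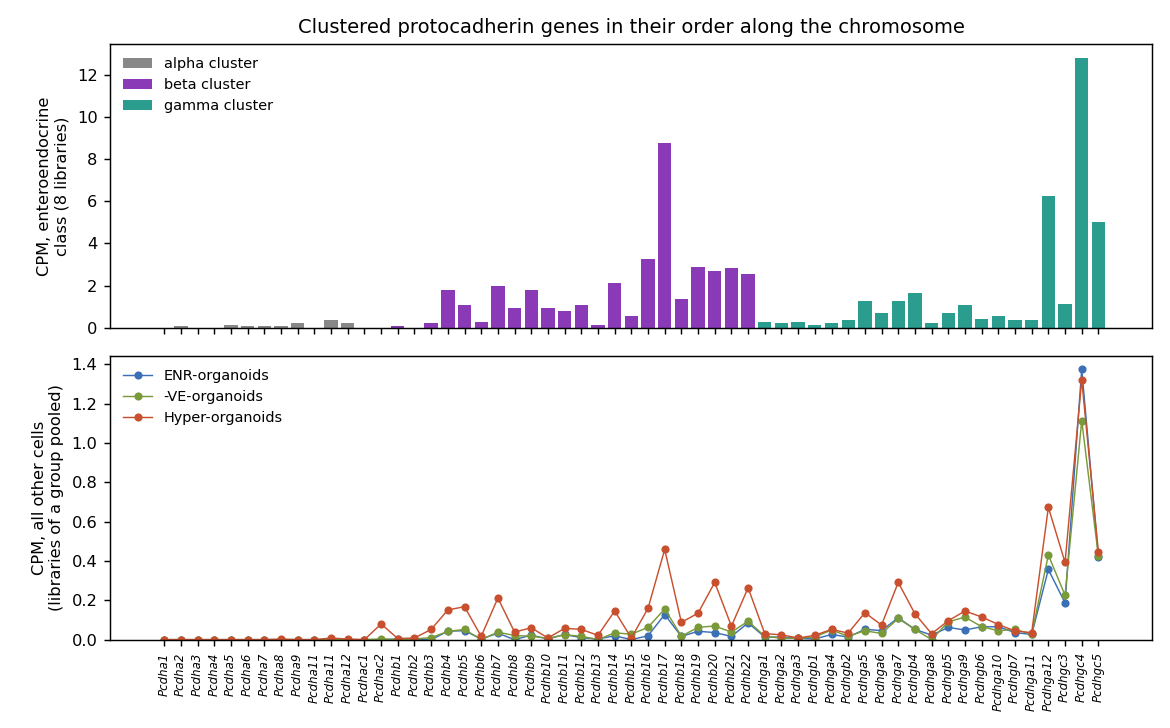
All 57 genes of the alpha, beta and gamma clusters in chromosomal order, as pooled CPM in enteroendocrine cells (top, bars from 0) and in all other cells by group (bottom, points joined by lines). Pcdhgc4 and Pcdhb17 are the highest bars (12.8 and 8.78 CPM), and in the lower panel the Hyper line lies above the others over much of the beta cluster but not at Pcdhgc4.

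The share of stem cells with a UMI of any clustered protocadherin was compared after each cell was thinned to 10000 UMIs, and cells with fewer were left out. It was 3.80%, 2.86% and 1.75% in ENR-, 4.68% and 2.49% in -VE- and 6.00%, 6.98% and 4.12% in Hyper-organoids. Hyper and ENR did not overlap, while -VE library 1 lay above Hyper library 3. The difference between means, 2.90 percentage points, had a two-sided exact permutation p = 0.1, the smallest that 3 against 3 libraries allow. That permutation did not pair the libraries by culture series. Without thinning the difference was 8.25 points (exact permutation p = 0.1). In enteroendocrine cells the thinned share averaged 48.8% ± 2.1 (SD, n = 3) for Hyper-, 59.6% ± 1.8 (SD, n = 2) for -VE- and 53.8% ± 9.7 (SD, n = 3) for ENR-organoids, overlapping between ENR and Hyper (exact permutation p = 0.6). Free RNA in the droplets can give such UMIs too. As a level to set beside the stem cells, clustered protocadherins of enterocytes summed to 1.05, 1.57 and 1.86 CPM in ENR-, 3.62 and 1.39 CPM in -VE- and 11.8, 2.87 and 1.03 CPM in Hyper-organoids. The first Hyper value came from 5 UMIs in 7 cells and was above that library's stem cells (5.84 CPM), and the part of free RNA was not tested. Median depth per cell was 31294 to 43892 UMIs in stem and 14295 to 24908 UMIs in enteroendocrine cells.

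Members were also fitted within classes. Those near 0 UMIs in ENR- and -VE-organoids (Cdh3, Cdh13, Pcdh18 and, in transit amplifying cells, Pcdhb5, Pcdhb7 and Pcdhb20 among them) passed the class filter through the Hyper libraries and could only be called upwards, so the counts below describe the members that passed and are no support. In stem cells, 5 of 17 tested members rose and 1 fell against ENR-organoids, beside 15.2% of all genes tested there higher and 2.8% lower. Those were Cdh3, Cdh13, Pcdh17, Pcdh18 and Pcdh19, with Cdh26 the one that fell, a call lost without ENR library 1 (edgeR adjusted p = 0.0713). Against -VE-organoids the 5 rose with Pcdhb17, beside 14.7% higher and 1.76% lower. Pcdhb17 was called in 1 of the 6 leave-one-out fits in which it was tested, and not by DESeq2. Without -VE library 2, 3 members were called in that last fit. Cdh13 had 162 UMIs in Hyper and 0 in ENR stem cells, at least 12.9-fold higher. In transit amplifying cells 11 of 25 members rose and 1 (Cdh9) fell against ENR-organoids, beside 17.2% of all genes higher and 3.78% lower, and 9 rose against -VE-organoids, beside 15.5% higher and 2.32% lower. These counts were 7 without Hyper library 1 and 4 without -VE library 2. The 11 were Cdh3, Cdh13, Pcdh10, Pcdh17, Pcdh18, Pcdh19, Pcdhb5, Pcdhb7, Pcdhb20, Pcdhb22 and Pcdhga7. With 1 library left out, Pcdhb5, Pcdhb7 and Pcdhb22 were each called in 3 of 6 fits, lost without any 1 ENR library, and Pcdhga7 in 3 of 8. Pcdhb5, Pcdhb7, Pcdhb20 and Pcdhb22 were not tested in the other 2 fits. Pcdh10 lost its call without ENR library 2 (edgeR adjusted p = 0.0533) and Pcdh17 without Hyper library 1 (0.87 on the log2 scale), while the other 4 of these genes were called in 8 of 8.

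In goblet cells, 7 members were tested, and Cdh3 rose while Pcdhgc4 changed by -1.31 (log2; SE 0.42, edgeR adjusted p = 0.0333), beside 10.7% of all genes higher and 2.64% lower. Against -VE-organoids, Cdh3 alone of the 7 was called, beside 8.72% higher and 1.15% lower. The Pcdhgc4 call was lost in 4 of 8 fits with 1 library left out, those without ENR library 1, 2 or 3 (edgeR adjusted p = 0.0548, 0.0957 and 0.0791) or Hyper library 1 (-0.92, edgeR adjusted p = 0.0847). Pcdhgc4 in goblet cells was at 4.65 CPM in ENR-, 3.21 CPM in -VE- and 1.98 CPM in Hyper-organoids. In enteroendocrine cells edgeR called 0 of 12 members against ENR-organoids, beside 5.96% of all genes higher and 1.44% lower, and an unadjusted p under 0.05 was reached by 3 members upwards and 2 downwards. Against -VE-organoids 0 were called, beside 3.52% higher and 0.489% lower, with 2 upwards and 0 downwards at an unadjusted p under 0.05. Without Hyper library 1, 2 members were called against ENR- and 1 against -VE-organoids, and without ENR library 2 or 3, 1 member in one of these comparisons. DESeq2 was run in stem cells but not in the other classes.

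In -VE- against ENR-organoids edgeR called 0 members within any of the 4 classes, beside 0.503% of all genes in stem, 1.03% in transit amplifying, 1.14% in goblet and 0.19% in enteroendocrine cells. At an unadjusted p under 0.05 there were 1 higher and 1 lower member in stem, 2 and 2 in transit amplifying, 1 and 0 in goblet and 1 and 1 in enteroendocrine cells, and DESeq2 called 0 in stem cells. Whether the change in a class differed from that in stem cells was tested with an interaction term, which passed an adjusted p of 0.05 for 4 members (Cdh17, Cdh13, Pcdhga7 and Pcdhga12) in enteroendocrine cells against ENR-organoids, beside 15.6% of all genes. It passed for 2 (Cdh17 and Pcdh17) in that class against -VE-organoids, beside 7.06%, and for 2 (Pcdhb5 and Pcdhgc4) in goblet cells against ENR-organoids, beside 11.6%. The number of members tested with that term is not given here, so these counts cannot be set against the shares.

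Other genes of cadherin adhesion were read from 6 lists. Which of their genes passed a filter only through the Hyper libraries was not examined. Such genes could only be called upwards in Hyper-organoids, so the counts of called genes in these lists, over all cells and within classes, are no support. Of all 16037 genes, 9902 had an unadjusted p under 0.05 in Hyper- against ENR-organoids, in either direction, which is the background for such counts here. Of the catenins and junction plaque genes, which tie cadherins to the cytoskeleton, 0 of 11 tested were called by edgeR or DESeq2 in Hyper- against ENR-organoids, with 1 higher and 5 lower at an unadjusted p under 0.05. The same counts, 1 and 5, passed an edgeR adjusted p under 0.05 but fell short of a 2-fold change. The share of all genes that passed the adjusted p at any size is not given here. Ctnnb1, beta-catenin and the most abundant, was at 230.2 ± 15 CPM (SD, n = 3) for Hyper- and 211 ± 3.9 CPM (SD, n = 3) for ENR-organoids. Among desmosomal cadherins and desmoplakin, 2 of 5 rose, Dsc3 (1.68) and Dsg1c (1.16) on the log2 scale, both under 0.2 CPM, beside 18.2% of all genes, and DESeq2 called 0. Of the others, 2 were lower at an unadjusted p under 0.05, the abundant Dsp (-0.58, edgeR adjusted p = 0.00103) and Dsg2 (-0.29, edgeR adjusted p = 0.002), both short of a 2-fold change. Of the Fat, Dachsous and flamingo cadherins, which act in planar polarity, with the calsyntenins and Fjx1, 3 of 10 rose and 1 fell, few genes to set beside the 18.2% and 4.75% of all genes. Fjx1, whose fly relative phosphorylates Fat and Dachsous, changed by 6.25 on the log2 scale, Clstn2 by 5.22, Celsr3 by 1.18 and Clstn3 by -1.42. Against -VE-organoids 5 of the 10 rose and 0 fell, beside 16.1% and 2.51% of all genes. Clstn3 (-2.60) and Celsr1 (-1.53) fell in -VE- against ENR-organoids.

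Brush border cadherins and their partners, which link microvilli, had 0 of 7 called by edgeR or DESeq2, with 0 higher and 3 lower at an unadjusted p under 0.05. The 3 lower ones also passed an edgeR adjusted p under 0.05, short of a 2-fold change. Calml4 was the most abundant, at 314 ± 18 CPM (SD, n = 3) in ENR- and 272 ± 23 CPM (SD, n = 3) in Hyper-organoids. Of the transcriptional repressors known to act on Cdh1, 3 of 5 rose against ENR-organoids, beside 18.2% of all genes, and DESeq2 called 2. These were Twist1 (fitted 7.38 on the log2 scale), Snai3 (1.64) and Zeb1 (1.60), and Snai3 also rose in -VE- against ENR-organoids (1.47). The UMIs behind these fitted values, and behind those of Fjx1 and Clstn2, are not given here, so they are not read as sizes. Within stem cells, 1 of 4 repressors tested rose and 1 fell in Hyper- against ENR-organoids, beside 15.2% of all genes higher and 2.8% lower. Within transit amplifying cells 2 of 4 rose and 1 fell, beside 17.2% and 3.78%. In goblet cells 2 of 3 rose and 0 fell, beside 10.7% and 2.64%, and in enteroendocrine cells 1 of 1 rose, beside 5.96%. Of 15 chromatin factors that act on the protocadherin clusters, 0 were called by edgeR or DESeq2, with 1 higher and 12 lower at an unadjusted p under 0.05. At an edgeR adjusted p under 0.05 there were 1 higher and 11 lower, all short of a 2-fold change. The cohesin subunit Smc1a, the most abundant, was at 169 ± 8.4 CPM (SD, n = 3) in ENR- and 143 ± 6.4 CPM (SD, n = 3) in Hyper-organoids.

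In colonic crypts, with 1 library per group and no test, 8 members reached 1 CPM. Cdh1 was at 392 CPM (95% Poisson interval 383 to 401) in normal and 322 CPM (316 to 329) in DSS crypts, Cdh17 at 351 CPM (343 to 359) and 298 CPM (292 to 304), and Pcdh1 at 45.0 CPM (42.1 to 48.1) and 38.9 CPM (36.8 to 41.1). All 3 were lower in the DSS library by under 2-fold. Within the authors' clusters the order varied. Cdh1 in normal and DSS cells was at 394 and 321 CPM in cluster 1, but at 245 and 254 CPM in cluster 2 and 196 and 238 CPM in cluster 5. Clusters 3 and 12, with Cdh1 at 549 and 726 CPM, held 274 and 93 normal cells and 1 DSS cell each. The part of cell composition was not tested. The leukocyte list was at 114 CPM in the normal and 1074 CPM in the DSS library, and cells with a UMI of Ptprc were 17.7% and 19.1%. In log2(CPM + 1), DSS minus normal was -0.28 for Cdh1, -0.24 for Cdh17 and -0.20 for Pcdh1. Without cells with a Ptprc UMI it was -0.27, -0.23 and -0.17. The part of leukocytes without a Ptprc UMI was not tested. No member of at least 1 CPM was 2-fold apart, beside 5.08% of 12440 genes. Cdh3, at 5 and 6 UMIs, and Cdh13, at 1 and 6, were close to the limit of detection. The 42 clustered genes summed to 5.83 CPM (116 UMIs) and 8.95 CPM (290 UMIs).

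Pcdh17, named here after its values were seen, was higher in the colon than in any organoid library. It was at 17.8 CPM (16.0 to 19.7) in normal and 9.38 CPM (8.36 to 10.5) in DSS crypts, a difference of -0.86 in log2(CPM + 1). Of the authors' clusters, number 2, labelled stem, had 53.7 CPM in normal and 35.9 CPM in DSS cells. Cluster 13, which had the highest level of the proliferation gene Top2a, had 52.8 CPM in normal (64 UMIs) and 6.10 CPM in DSS cells (8 UMIs) of Pcdh17. In cluster 1 the order was the other way, with 9.48 CPM of Pcdh17 in normal (23 UMIs) and 15.8 CPM in DSS cells (87 UMIs). Cluster 16, with the enteroendocrine gene Chga at 14371 CPM, had the highest Pcdhgc4 level, 22.7 CPM from 10 UMIs. The clustered protocadherins of cluster 16 summed to 64.3 CPM (10 UMIs, 16 cells) in normal and 123 CPM (35 UMIs, 43 cells) in DSS crypts. Cluster 18, with Col1a1 at 1350 CPM, held 17 UMIs of Cdh11, a cadherin of mesenchymal cells, at 75.2 CPM.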

How the data were processed

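Sequencing (3′ end, V3 chemistry) was aligned to mm10 and counted by the authors with Cell Ranger, given as 3.0.0 in their notes. The deposited values are raw UMI counts per gene and barcode, not normalized. The authors' table of kept cells gave cells and classes. Kept cells had at least 501 genes and at most 20% mitochondrial UMIs, though the methods state 1500 genes. UMIs were summed over cells of a library. All 8 organoid libraries were fitted with edgeR 4.0.16 (R 4.3.3: TMM, filterByExpr, quasi-likelihood F test), and each adjusted p comes from it. Organoid CPM is TMM-adjusted per library, and plain when pooled by class, cluster or gene family. SE is the fold change divided by the square root of F. DESeq2 1.42.0 was an alternative. Bounds used a floor of 3 counts per group, and the 95% Poisson and ratio intervals are exact. No doublet caller was run. Scripts were tested on simulated data.

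Libraries of the same number were taken to share a culture series, as read from their codes. Deviations of ENR- and Hyper-organoids from their group means correlated with r = 0.192, 0.170 and 0.436 across genes in the 3 series. Across series r was 0.129 for Hyper library 1 with ENR library 2 and 0.0619 for ENR library 1 with Hyper library 2. It was negative, -0.179 to -0.292, where either library was numbered 3. Deviations within a group are linked by construction. The values set libraries numbered 3 apart, and do not settle whether libraries 1 and 2 pair by number. The fit without the block was the main one. Per-library values were given for members of at least 10 CPM in any group, or called and of at least 2 CPM, and further called members were named with a fold change. For 8 of these (Cdh2, Cdh4, Cdh9, Cdh26, Pcdh10, Pcdh17, Pcdh18, Pcdhb7), and for Cdh13 and Pcdh8, per-library values were added after the values were seen. In the colon, members of at least 20 CPM in either library, or 2-fold apart with 10 UMIs in both, were named. The members and lists were chosen with earlier results of these data known. Coordinates are from GENCODE release M21.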

Additional observations from a re-analysis of the deposited data

Results flagged for a closer look

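Whether the effect of the medium differed from that in stem cells was tested for each class by edgeR's interaction term, over 14555 genes, and 8 differences among members passed an adjusted p of 0.05. They are given as the log2 fold change in the class minus that in stem cells. Against ENR-organoids, Cdh17 differed by 0.39 in enteroendocrine cells (edgeR adjusted p = 0.0106), where its own change was 0.15, and against -VE-organoids by 0.40 (edgeR adjusted p = 0.0236). Cdh13 differed by -7.94 in enteroendocrine cells (edgeR adjusted p = 0.044), which held 3 Hyper and 2 ENR UMIs of it, so the size is not a measure. Pcdhga7 differed by -3.48 and Pcdhga12 by -1.86 in enteroendocrine cells against ENR-organoids (edgeR adjusted p = 0.0308 and 0.0407). They had 18 and 88 UMIs in that class over the 8 libraries. Pcdh17 differed by -2.49 in enteroendocrine cells against -VE-organoids (edgeR adjusted p = 0.0242), with 11 Hyper and 10 -VE UMIs in that class. In goblet cells against ENR-organoids, Pcdhb5 differed by -7.07 (edgeR adjusted p = 0.035) and Pcdhgc4 by -1.65 (edgeR adjusted p = 0.026). Stem cells of ENR-organoids held no Pcdhb5 UMI, so that size is not a measure either. Over all genes, 15.6% passed in enteroendocrine and 11.6% in goblet cells against ENR-organoids, and 7.06% in enteroendocrine cells against -VE-organoids.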

How the results depend on the processing

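With culture series as a replicate block, 19 members were called against ENR-, 13 against -VE-organoids and 1 in -VE against ENR, and in stem cells 6, 6 and 0. Pcdhga9 lost its call and Pcdhb5 gained one. With a filter of 10 CPM in 2 libraries, 3 members were tested and 0 called in each of the 3 comparisons. Stem cells alone gave 6, 6 and 0 (fewer members tested), and all barcodes gave 2 in -VE against ENR and ended the calls of Pcdh17, Pcdh19, Pcdhgb4 and Pcdhgc3 against ENR. Leaving out 1 library gave 14 to 24, 5 to 15 and 0 to 1. In classes it gave, against ENR- and -VE-organoids, 5 to 7 and 3 to 6 (stem), 7 to 13 and 4 to 11 (transit amplifying), 1 to 4 and 1 to 2 (goblet) and 0 to 2 and 0 to 1 (enteroendocrine). The share of stem cells moved to 8.25 points unthinned. Of single log2 fold changes recomputed, 1061 kept direction and side of the threshold, 106 lost and 9 gained a call and 11 reversed. Pcdh8 against ENR reversed to -0.48 (block), -0.72 (stem cells), and ran from -1.54 (without Hyper library 1) to 0.50 with 1 library left out. Cdh9 against -VE reversed to 0.0106 without TMM, 0.12 without the 5% of cells with most UMIs, 0.0091 with all barcodes, and ran from -0.60 to 0.53 (without -VE library 1) with 1 library left out. Pcdh1 against -VE reversed to 0.0693 with the 10 CPM filter and 0.0825 without TMM, and ran from -0.13 to 0.0426 (without -VE library 2) with 1 left out. Without TMM the median of all genes moved to 0.12 against ENR and 0.15 against -VE. The cause was not tested. Depth limits the 25 members under the filter and the colon, whose libraries held fewer UMIs.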
